A study of Drosophila melanogaster with 12 samples.

Results

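The odorant-binding protein genes described here are Obp28a, Obp83a, Obp83b, Obp99a, Obp99b and Obp99c of Drosophila melanogaster. They were chosen by name, as 6 of the 10142 genes in the regions where genes could be named. Of the 51 annotated Obp genes, 14 lay in those regions. The members' values are reads on the gene's own strand, from its start to 500 nt past its end.

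Poly(A) sites were profiled by 3'READS and 3'READS+, in which RNA fragments ending in a poly(A) tail are selected and sequenced, so that each read marks a transcript end. Heads and bodies were taken from w1118 flies, the wild type (4 libraries of each tissue), and from flies with the C4 allele of RpII215, called the mutant here (2 libraries of each tissue). RpII215 is the gene of the largest RNA polymerase II subunit. Age and sex are not given in the labels, nor whether replicates came from different animals, so the p-values cover the spread among libraries, which could be technical.

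Odorant-binding proteins are small soluble proteins, most of which support cells secrete into the fluid around the dendrites of chemosensory neurons. There they bind hydrophobic odorants and are thought to carry, buffer or clear them. Several members of the family are also made in tissues with no olfactory role, such as the fat body.

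Library totals ran from 2219693 to 9062730 reads, of which 762213 to 3019404 fell in named genes. Sample numbers fell into a pair of far-apart ranges, called block 1 (wild-type replicates 1 and 2 of both tissues) and block 2 (all mutant libraries with wild-type replicates 3 and 4), and the block was treated as a technical batch. Head and body labels matched their markers: the 11 photoreceptor genes summed to between 19457 and 62891 CPM in wild-type heads and between 84.1 and 3587 CPM in wild-type bodies. The 20 male reproductive genes summed to between 44022 and 75855 CPM in wild-type bodies, and the 7 female reproductive genes to at most 1.35 CPM there. RpII215 lies outside the named regions and was not analysed here.

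All members are on arms 2L and 3R, and coordinates are those of the files (BDGP5). Obp28a (FBgn0011283) lies alone on the minus strand of 2L, from 7496791 to 7497365. Obp83a (FBgn0011281, 3R minus strand, 1797877 to 1800967) and Obp83b (FBgn0010403, 3R minus strand, 1801899 to 1802539) are neighbours. The Obp99 genes form a looser group on 3R, with Obp99a (FBgn0039678) on the plus strand from 25497379 to 25498056. Obp99c (FBgn0039682) runs from 25511458 to 25515033 and Obp99b (FBgn0039685) from 25541976 to 25542618, both on the minus strand. Coding lengths with the stop codon are alike, from 426 bases in Obp83b to 525 in Obp83a. The annotated stretch from stop codon to gene end is short in all 6, between 63 nt in Obp99c and 143 nt in Obp83a.

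Levels are CPM, counts scaled to 1000000 reads in named genes on a common TMM scale, and since each read marks 1 transcript end they can be set side by side between genes without division by length. In wild-type heads Obp99c was highest (3961 ± 3486 CPM, mean ± SD, n = 4), followed by Obp83a (2505 ± 669), Obp83b (1160.2 ± 279), Obp99b (891 ± 537), Obp28a (175 ± 27.4) and Obp99a (19.2 ± 21.8). The libraries of Obp83a and Obp83b did not overlap, nor did those of Obp28a and Obp99a, while the other neighbours in that order overlapped. In wild-type bodies the order was Obp99c (2970.2 ± 2118), Obp99b (1897 ± 3360), Obp99a (176 ± 159), Obp83a (136 ± 162), Obp83b (61.9 ± 69.0) and Obp28a (10.05 ± 11.4), and every neighbouring pair overlapped. The 6 genes together summed to between 6091.5 and 12828 CPM in wild-type heads and between 871 and 12290 CPM in wild-type bodies.

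**Figure D1:**
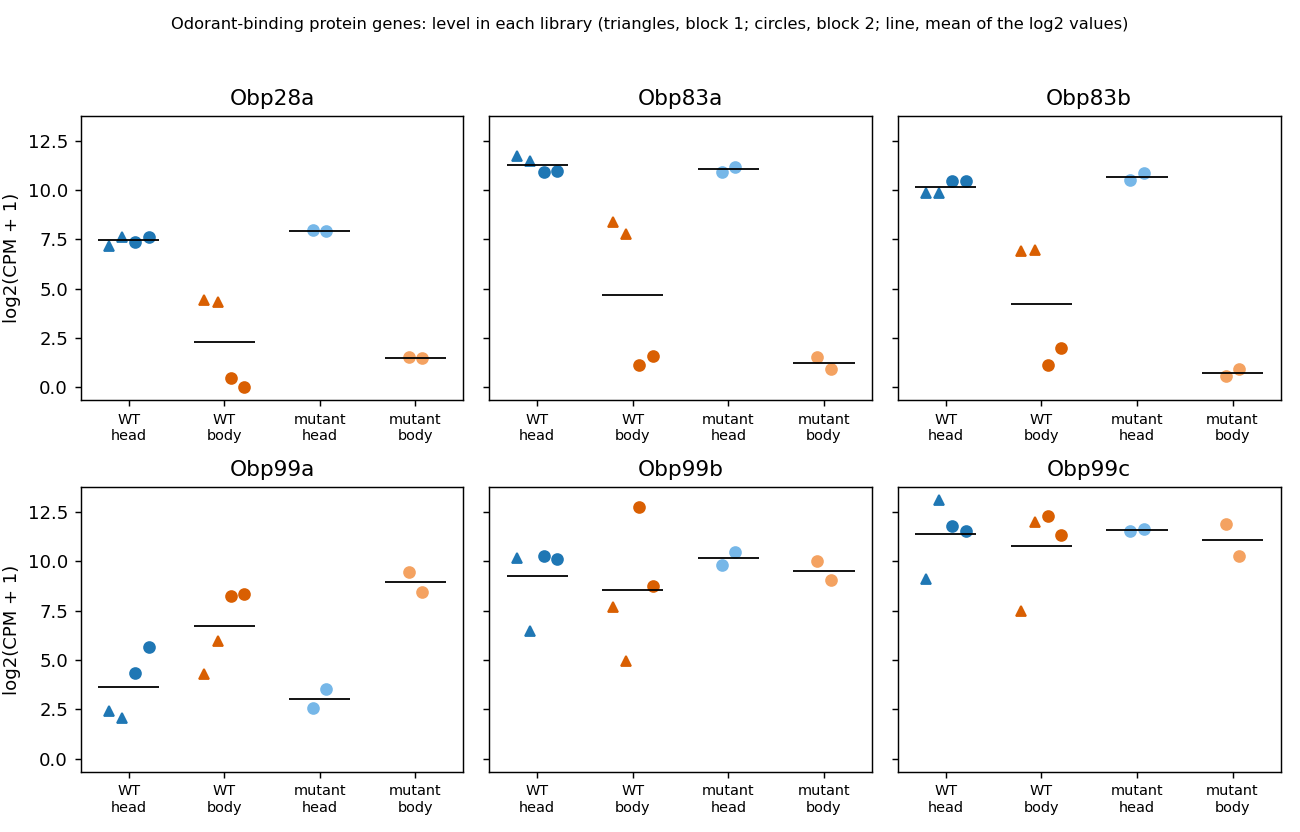
Level of each gene in each of the 12 libraries as log2(CPM + 1), by group (WT, wild type). Triangles are block 1, circles block 2, and lines mark the mean of the log2 values. Obp28a, Obp83a and Obp83b were high in every head library, and their body libraries split by block. Obp99a was higher in bodies, and Obp99b and Obp99c spread widely within groups.

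Obp28a, Obp83a and Obp83b, known as antennal genes, were higher in heads than in bodies of both genotypes. Wild-type tissues were compared with edgeR's quasi-likelihood test over 4 head and 4 body libraries with the block as a term, adjusted over 5120 genes. At an adjusted p under 0.05, 49.4% of these genes were called, 20.1% as higher in heads and 29.3% as lower. Of the 6 members, 3 were called higher, 1 lower and 2 not at all. Their median log2 fold change was 2.86, against 0.13 over all genes tested. Mutant tissues were compared in a fit of the 8 libraries of block 2, where 54.1% of 5608 genes were called. Of the genes tested, 20.9% were called higher in heads and 33.1% lower, and the members again gave 3 higher and 1 lower. Obp28a, Obp83a and Obp83b had at most 12 reads in the block 2 bodies of a genotype, and Obp99a was low in heads. Such genes pass the filter on low counts mainly through the other tissue, so the members' counts and median are a description that supports nothing.

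Obp83a, also called OS-F or Pbprp3, encodes a binding protein of trichoid sensilla, the antennal hairs that include pheromone detectors. It had 3318, 2786, 1933 and 1982 CPM in wild-type head replicates 1 to 4, and 326, 215, 1.16 and 2.02 CPM in the matching bodies. Mutant heads had 1929 and 2316 CPM, and mutant bodies 1.88 and 0.910 CPM. Heads and bodies did not overlap in either genotype, and the wild-type bodies of block 1 stood far above those of block 2. Groups failed to overlap for 36.5% of genes in the wild-type comparison and for 77.4% in the mutant one. The log2 fold change of heads over bodies was 6.56 in wild type (SE 1.57, edgeR adjusted p = 0.00736) and 10.56 in mutants (SE 0.57, edgeR adjusted p = 1.94e-04).

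Obp83b, also called OS-E, encodes a close relative found in many of the same sensilla. Its wild-type heads held 911, 928, 1379 and 1423 CPM, and its wild-type bodies 119, 124, 1.16 and 3.03 CPM. In mutants it had 1435 and 1832 CPM in heads and 0.469 and 0.910 CPM in bodies. As for its neighbour, no body library reached any head library, and block 1 bodies were above block 2 bodies. The log2 fold change was 5.89 in wild type (SE 1.49, edgeR adjusted p = 0.00999) and 10.998 in mutants (SE 0.67, edgeR adjusted p = 1.94e-04). The wild-type call was lost without wild-type body replicate 4 (4.15, edgeR adjusted p = 0.0607).

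Obp28a, also called Pbprp5, encodes a binding protein abundant in basiconic sensilla, the class that detects many food odours. Wild-type heads had 143, 197, 163 and 199 CPM and wild-type bodies 20.6, 19.2, 0.388 and 0 CPM. Mutant heads had 246 and 243 CPM, and mutant bodies 1.88 and 1.82 CPM. Heads and bodies again did not overlap. Both mutant head libraries were above all 4 wild-type heads, and within block 2 the genotypes failed to overlap in heads for 50.5% of genes. Heads over bodies gave a log2 fold change of 5.28 in wild type (SE 1.18, edgeR adjusted p = 0.00512) and 6.98 in mutants (SE 0.49, edgeR adjusted p = 1.94e-04).

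The size of the drop from head to body in these 3 genes was not the same in both blocks, and few reads stood behind the low body values. In block 2 the wild-type bodies held 1 read of Obp28a against 947 in heads, a head-to-body ratio of 997 (exact 95% interval 178 to 39418, counting error only). Obp83a had 9 body reads against 10316 in heads, a ratio of 1207 (635 to 2640). Obp83b had 12 against 7382, a ratio of 648 (371 to 1254). In block 1 the same ratios were 7.99 (6.02 to 10.8), 10.4 (9.71 to 11.2) and 7.62 (6.78 to 8.57). In mutants, which are all of block 2, they were 133 (71.9 to 277), 1649 (799.9 to 4102) and 2221 (867 to 8153).

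The log2 fold changes within block 1, with 2 libraries a group, were 2.84 for Obp28a (edgeR adjusted p = 0.0325), 3.24 for Obp83a (edgeR adjusted p = 0.0289) and 2.64 for Obp83b (edgeR adjusted p = 0.0327). Within block 2 they were 9.50, 10.05 and 9.17 (edgeR adjusted p = 3.68e-04 for each). The direction and the call were thus the same in each block, while the size was not. Leaving out 1 library moved the wild-type value of Obp83a between 4.69 and 8.27, that of Obp83b between 4.09 and 7.50, and that of Obp28a between 4.14 and 6.29. With no block in the fit, Obp83a was at 4.22 (edgeR adjusted p = 0.0677). Fewer cells of a type and less RNA per cell cannot be told apart in bulk libraries.

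Some other head genes, but not all, moved with the block 1 bodies. As a percent of the head level, wild-type bodies of block 1 and block 2 held 11.7% and 0.107% of Obp28a, 8.86% and 0.0813% of Obp83a, and 13.2% and 0.150% of Obp83b. The 7 olfactory auxiliary genes in named regions summed to between 229 and 232 CPM in block 1 bodies and between 36.8 and 42.7 CPM in block 2 bodies, or 12.2% and 1.19% of the head level. Os-C gave most of the block 1 sum, with 11.7% and 0.0995% of its head level, and a5 (8.20% and 0.293%) and Orco (6.22% and 0.560%) had the same order. Snmp1 had 25.5% and 19.0%, Amt had 3.90% and 2.90% on at most 2 body reads a block, rn went the other way (16.1% and 40.4%), and ato had no reads in wild-type libraries. The 11 photoreceptor genes, all with reads in bodies of both blocks, were at 5.85% and 0.432%. The odorant receptors were at 11.4% and 10.5%, and at 65.3% in mutants. Their sums were 4.26 and 2.35 CPM in the block 2 wild-type bodies, where 3 reads are 1.16 and 1.01 CPM. With so few reads, likeness between blocks cannot be judged for them. The neuronal list, at 8.62% and 14.9%, went the other way. The glial list was at 13.4% and 23.3%, with its block 1 replicates far apart at 7.80% and 148%. The part of head material in the body values was not tested.

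**Figure D2:**
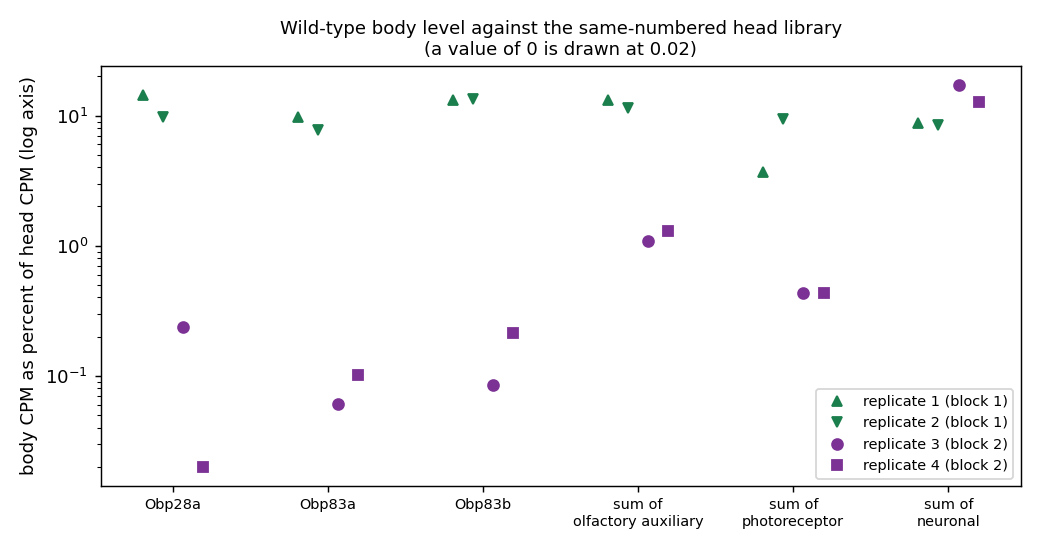
Body CPM as a percent of head CPM, on a log axis, for each wild-type replicate, for 3 odorant-binding protein genes and the sums of 3 marker lists. Upward and downward triangles are the replicates of block 1, circles and squares those of block 2. Replicates 1 and 2 lie far above replicates 3 and 4 for the odorant-binding protein genes and the olfactory and photoreceptor sums, and not for the neuronal sum.

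Obp83a and Obp83b also differed in their ratio between blocks. In wild-type heads of block 1 Obp83a had 3.64 and 3.00 times the CPM of Obp83b, and in block 2 it had 1.40 and 1.39 times. Mutant heads had 1.34 and 1.26, next to the wild-type heads of the same block. Tissue and genotype were therefore compared with the block in the fit or within block 2.

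The Obp99 genes showed another pattern. Obp99a, whose product has been found both in chemosensory organs and outside them, was higher in bodies. It had 4.35, 3.16, 19.3 and 50.1 CPM in wild-type heads and 18.8, 60.4, 305 and 320.2 CPM in wild-type bodies. Mutant heads had 5.02 and 10.4 CPM and mutant bodies 696 and 352 CPM. Each wild-type body exceeded its same-numbered head and both mutant bodies exceeded both mutant heads, though wild-type head replicates 3 and 4 were above wild-type body replicate 1. Over bodies, heads had a log2 fold change of -3.23 in wild type (SE 0.51, edgeR adjusted p = 7.57e-04) and -6.09 in mutants (SE 0.68, edgeR adjusted p = 4.24e-04). It was -3.66 within block 1 (edgeR adjusted p = 0.0583) and -3.34 within block 2 (edgeR adjusted p = 0.00219), and -3.19 with no block in the fit (edgeR adjusted p = 0.0562).

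Obp99b, also called tsx, is known from the fat body of the male head, where the sex determination pathway controls it. It had 1158, 88.4, 1217 and 1101 CPM in wild-type heads and 205, 29.5, 6930.5 and 422 CPM in wild-type bodies. Mutant heads had 904 and 1414 CPM and mutant bodies 1021 and 526 CPM. Heads and bodies overlapped in both genotypes, with head replicate 2 far below the other heads and body replicate 3 far above the other bodies. Neither tissue difference was called, with a log2 fold change of 0.37 in wild type (SE 1.49, edgeR adjusted p = 0.860) and 0.57 in mutants (SE 0.97, edgeR adjusted p = 0.646). The larval serum protein gene Lsp1beta, a fat body product, had 6359.5 CPM in body replicate 3 against 260.3 CPM in body replicate 4, and Lsp1gamma 49.2 against 5.38 CPM. The other fat body genes did not follow as one: FASN1 (75.2 against 85.8 CPM) and to (28.7 against 64.6 CPM) were lower there, and Apoltp (83.7 against 63.6 CPM) and tobi (135 against 72.3 CPM) higher. The list summed to 6731 CPM in body replicate 3, 552 CPM in body replicate 4 and 687 to 4939 CPM in block 1 bodies. The part of the fat body in the Obp99b level was not tested.

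Obp99c, which is abundant in the antenna and in other tissues, had 557, 8825, 3510.1 and 2952 CPM in wild-type heads. Wild-type bodies had 181, 4065, 5051 and 2583 CPM. Mutant heads had 2937 and 3238 CPM, and mutant bodies 3834 and 1244 CPM. The tissues overlapped in both genotypes, and replicate 1 was lowest and far below the rest in both wild-type tissues. The log2 fold change was 0.45 in wild type (SE 1.03, edgeR adjusted p = 0.752) and 0.29 in mutants (SE 0.53, edgeR adjusted p = 0.659). The mutant value was 1.17 without mutant body replicate 1 (edgeR adjusted p = 0.0323) and -0.45 without mutant body replicate 2.

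The make-up of the 6 genes' summed CPM followed from these levels. The Obp99 genes gave 28.2%, 69.5%, 57.7% and 53.2% of the sum in wild-type head replicates 1 to 4, and 51.6% and 51.5% in mutant heads. In bodies they gave 46.5%, 92.1%, 99.98% and 99.8% in wild type, and 99.9% and 99.8% in mutants. Body replicate 1 was the lowest body, and it was also the one with little Obp99c.

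**Figure D3:**
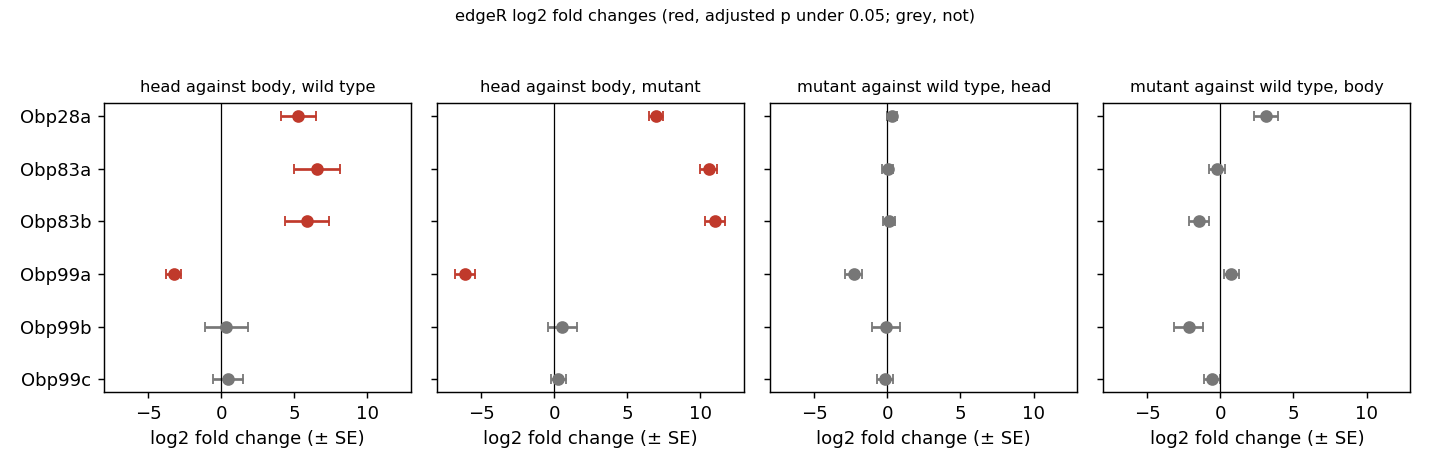
edgeR log2 fold changes with their standard errors for the 6 genes in 4 comparisons. Red marks an adjusted p under 0.05 and grey a larger one. In both genotypes Obp28a, Obp83a and Obp83b lay to the right (higher in heads) and Obp99a to the left, and no gene was called between genotypes.

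The genotype comparison asked whether the polymerase allele changed these levels in either tissue, using the 8 libraries of block 2. In heads 51 of 5608 genes were called, or 0.909% (0.392% higher and 0.517% lower in mutants), and in bodies 123, or 2.19% (1.23% higher and 0.963% lower). None of the 6 members was called in either tissue by edgeR's quasi-likelihood test at an adjusted p under 0.05. At an unadjusted p under 0.05 the test took 621 genes in heads and 1008 in bodies, with Obp99a in heads and Obp28a in bodies among them. The DESeq2 Wald test called Obp99a in heads.

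Obp99a in heads had the lowest p among the members, with 19.3 and 50.1 CPM in wild type and 5.02 and 10.4 CPM in mutants of block 2. Both mutant heads lay below both wild-type heads, in a comparison where groups did not overlap for 50.5% of genes. The log2 fold change was -2.29 (SE 0.60, edgeR adjusted p = 0.153), and the DESeq2 Wald test gave -2.27 with an adjusted p of 0.0201. Wild-type heads of block 1, with 4.35 and 3.16 CPM on 5 and 2 reads, were as low as the mutant heads.

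The log2 fold changes of mutant over wild-type heads were 0.34 for Obp28a (SE 0.35), 0.02 for Obp83a (SE 0.36) and 0.12 for Obp83b (SE 0.41). For Obp99b the value was -0.10 (SE 0.97), and for Obp99c -0.15 (SE 0.52). The edgeR adjusted p was 0.877 for Obp28a and 1 for the other 4 genes. In the same comparison Obp99a, at -2.29 with an SE of 0.60, was not called, so changes of several SE can go undetected in this design.

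In bodies the antennal genes were near the floor in both genotypes, so their genotype values rest on few reads. Obp28a had 1 read in both wild-type bodies together and 10 in the mutant bodies, a log2 fold change of 3.11 (SE 0.83, edgeR adjusted p = 0.103). Obp83a had 9 reads against 7 (-0.23, SE 0.55, edgeR adjusted p = 0.874), and Obp83b 12 against 4 (-1.45, SE 0.68, edgeR adjusted p = 0.320). These counts are too low to show a moderate difference.

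The Obp99 genes had more reads in bodies. Obp99a had 305 and 320.2 CPM in wild type against 696 and 352 CPM in mutants (log2 fold change 0.77, SE 0.54, edgeR adjusted p = 0.514). Obp99b was at -2.17 (SE 1.01, edgeR adjusted p = 0.320), a value that turned to 0.82 without wild-type body replicate 3. Obp99c was at -0.56 (SE 0.53, edgeR adjusted p = 0.625). Mutant and wild-type bodies were fully separate for Obp99a, which was so for 44.1% of genes.

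Whether the tissue difference itself depended on genotype was tested with an interaction term within block 2. No gene of 5608 passed (0%) in edgeR's quasi-likelihood test, while 384 had an unadjusted p under 0.05 and the DESeq2 Wald test called 40. For Obp99a the interaction, the genotype effect in heads minus that in bodies, was -3.06 (edgeR adjusted p = 0.443). It passed only without mutant body replicate 2 (-3.39, edgeR adjusted p = 0.0416).

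Of the other annotated Obp genes in the named regions, 6 reached a mean of 5 CPM in a group. Obp84a had 68.8, 140.5, 84.0 and 99.3 CPM in wild-type heads and 3.14, 10.3, 2.33 and 0.673 CPM in the matching bodies (a log2 change of 5.01, SE 0.62, edgeR adjusted p = 2.33e-04). Obp22a went the other way, with at most 3.16 CPM in wild-type heads and between 19.2 and 53.0 CPM in bodies (-5.58, SE 0.76, edgeR adjusted p = 3.71e-04). Obp84a had 22 reads in all wild-type bodies, and Obp22a had 5 in all wild-type heads. Each thus passed the filter on low counts mainly through its high tissue, so these calls are a description that supports nothing. Obp83cd, Obp83ef, Obp83g and Obp99d lay between -0.69 and 0.75 and were not called. In mutants, Obp83cd (2.10, edgeR adjusted p = 0.0177) and Obp83g (3.46, edgeR adjusted p = 0.0244) were called higher in heads. No read of Obp85a was counted in the 12 libraries, and Obp93a stayed at or under 3.34 CPM in each.

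Other olfactory genes were compared from lists chosen with earlier results of these data known. All 6 olfactory auxiliary genes tested were called higher in wild-type heads, against 20.1% of all genes tested. Their median log2 fold change was 4.69 against 0.13 over all genes. Amt had at most 2 reads in any wild-type body library. Genes with so few body reads passed the filter on low counts mainly through heads, so this count is a description that supports nothing. Orco, the co-receptor of odorant receptors, was at 5.74 (SE 0.78, edgeR adjusted p = 3.65e-04), and Snmp1, needed for pheromone detection, at 2.18 (SE 0.29, edgeR adjusted p = 3.10e-04). The 27 odorant receptors in named regions summed to between 2.35 and 11.8 CPM in wild-type bodies, so one that passed the filter on low counts did so mainly through heads, and the counts of called receptors are a description that supports nothing. Of these 27, 2 passed the filter, Or22b (log2 fold change 3.88) and Or63a (3.95), and both were called higher in heads. Of 19 ionotropic receptors Ir25a (3.00) and Ir40a (2.06) passed and were called higher, and of 38 gustatory receptors 3 did, with 2 called higher in heads and Gr61a lower.

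In mutants, 5 of the 6 olfactory auxiliary genes were called higher in heads and 1, the transcription factor rn, lower. Over all genes tested 20.9% were called higher and 33.1% lower. The limit of the filter on low counts holds for these lists as well, so the counts support nothing. Among mutant tissues 2 of 3 odorant receptors tested were called higher in heads and Or88a was not called (0.38, edgeR adjusted p = 0.729). Of 3 ionotropic receptors 2 were higher and Ir85a lower (-2.56, edgeR adjusted p = 0.00723), and of 4 gustatory receptors 3 were higher and Gr61a was not called. No olfactory auxiliary, odorant, gustatory or ionotropic receptor gene was called between genotypes in heads by edgeR's test. In bodies rn was higher in mutants (44.5 and 46.4 CPM against 15.5 and 9.75 CPM, log2 fold change 1.91, SE 0.34, edgeR adjusted p = 0.0357). It was the only gene of these 4 lists called there.

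The genes other than the 6 members whose levels followed each member most closely were ranked by the root mean square difference of log2(CPM + 1) over the 12 libraries, after each gene was centred on its own mean, among 4436 genes. Among these, the nearest to Obp83b was Os-C, an antennal gene of olfactory sensilla, at 0.604, followed by the photoreceptor myosin ninaC at 0.772 and chp, a photoreceptor surface protein gene, at 1.07. For Obp83a they were the photoreceptor arrestin Arr1 at 0.729, ninaC at 0.853 and Os-C at 0.887. For Obp28a they were the rhodopsin gene Rh2 at 0.653, the photoreceptor channel gene trp at 0.714 and rtp at 0.754. The median over genes was 4.22, 4.56 and 3.19 for these 3 members, and Obp83a and Obp83b themselves were 0.663 apart, which for Obp83a is closer than any of the ranked genes. These nearest genes are head genes, and the libraries share tissue and block.

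The nearest gene to Obp99a and the nearest to Obp99b were farther off than those above, and the nearest to Obp99c was not. The nearest to Obp99a were dtr at 0.861, CG15625 at 0.895 and CG43861 at 0.933, all higher in bodies. For Obp99b they were CG3505 at 0.951, CG14722 at 0.970 and dbe at 0.994. For Obp99c they were the general transcription factor gene TfIIA-S at 0.680, the nuclear pore gene Nup133 at 0.692 and MBD-like at 0.711. The closest pair among the Obp99 genes was Obp99b and Obp99c, 2.40 apart. That is farther than the median over genes, which was 2.27 for Obp99b and 1.98 for Obp99c.

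The positions of the transcript ends add a readout that the levels do not use. Of each member's reads, 98.96% for Obp28a, 96.2% for Obp83a, 99.9% for Obp99b and 91.7% for Obp99c ended within 24 nt of the annotated gene end, against 68.0% for Obp83b and 31.5% for Obp99a. In wild-type replicate 2 of both tissues, minus-strand ends most often fell exactly on the annotated end (55.7% and 56.1% of positions across the series). In the other libraries and on the plus strand the commonest distance was 2 nt past it. Single positions of minus-strand genes in replicate 2 are therefore not set beside those of other libraries.

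Obp83b had a distal end 70 nt past its annotated end. It took 22.6% and 21.5% of reads in wild-type heads of block 2, and 31.6% and 33.4% in mutant heads. In wild-type head replicate 1 it took 0.287%. Mutant heads were above both block 2 wild-type heads, and head replicate 1 of block 1 had almost no such ends. With 2 libraries a group the smallest exact p is 0.333, and the position was chosen after its values were seen, so no test is given. How many positions over all genes separate the genotypes in this way was not computed.

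Obp28a ended mainly at 1 of a pair of close positions. A lesser end, 7 nt past the annotated end, took 4.73% to 9.23% of reads in the heads of block 2. The main position 9 nt past the annotated end took 65.7% and 71.5% of reads in block 2 wild-type heads and 66.6% and 68.2% in mutant heads. In block 1 head replicate 1 it took 12.8%, and 84.8% of reads ended 24 nt past the end. Block 1 is represented here by replicate 1 and holds no mutant library. Obp83a ended mainly 2 nt past its annotated end, at 72.1% and 71.1% in block 2 wild-type heads, 73.3% and 74.9% in mutant heads and 90.2% in wild-type head replicate 1.

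Obp99a used 3'UTR ends, 50, 47 and 7 nt before the annotated end. In bodies the position 50 nt before it took 47.6%, 75.6%, 37.7% and 47.6% in wild type and 43.5% and 49.1% in mutants. Genotypes overlapped there. Obp99b was the most uniform member, with 86.7% to 95.8% of reads at the position 3 nt past its end in the 10 libraries other than replicate 2. The position 2 nt before the end took 3.70% to 4.08% in block 2 wild-type libraries and 7.95% to 12.1% in mutant libraries. It was chosen after its values were seen, and no test is given. How many positions over all genes have such separate ranges was not computed.

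Obp99c showed the widest spread of ends, over 8 positions that each took at least 2% of its reads pooled over libraries. One of these 8, at the annotated end itself, had reads only in wild-type replicate 2, whose minus-strand ends are shifted. Another lay 187 nt before the annotated end, at 25511645, in annotated coding sequence and 124 nt upstream of the last coding base. It took 9.68% (exact 95% interval 9.05 to 10.3) and 8.14% (7.59 to 8.71) of Obp99c reads in mutant heads. It took 8.90% (8.29 to 9.54) and 3.19% (2.68 to 3.78) in mutant bodies. The 6 wild-type libraries other than replicate 2 had 1 such read among 38890, and mutant libraries 2409 among 29771. All 4 mutant libraries were above these 6, which come from both blocks. This position too was chosen after its values were seen, and no test is given. The share of positions over all genes that separate the genotypes in this way was not computed. In wild-type replicate 2, whose minus-strand ends are shifted, none of 8348 Obp99c reads lay within 10 nt of the position.

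Other ends of Obp99c had these shares within block 2. The position 12 nt before the annotated end took 19.6% to 25.9% of reads in the 4 wild-type libraries and 3.17% to 5.76% in the 4 mutant libraries. The position 2 nt past it took 19.8% to 24.4% in wild type and 30.9% to 32.4% in mutants. The share of positions over all genes with such separate ranges was not computed. In level, the genotypes did not overlap for 50.5% of genes in heads and 44.1% in bodies, with 2 libraries against 2 in each tissue. Those values are for another measure and give no background for end shares in 4 libraries against 4. Block 1 replicate 1 did not keep to the wild-type range: the position 12 nt before the end took 45.0% of its head reads and 2.23% of its body reads. The position 73 nt past the end took 12.3% of its head reads and 50.5% of its body reads, against 2.21% to 3.64% in the wild-type libraries of block 2. These positions were chosen after their values were seen, and no test is given.

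**Figure D4:**
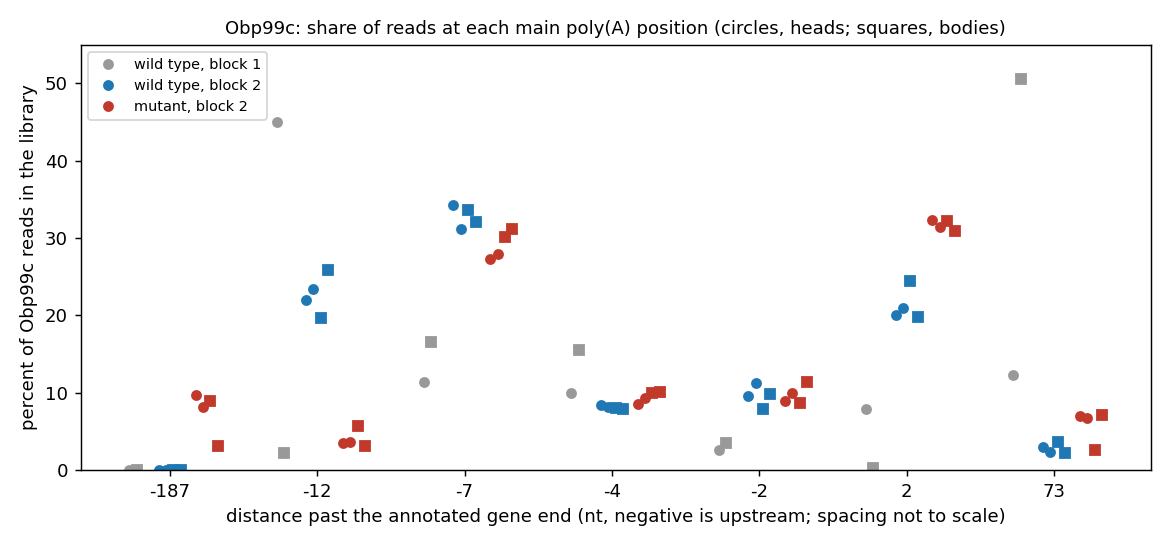
Percent of Obp99c reads at each main end, by distance in nt from the annotated gene end (unequally spaced), in the 10 libraries other than wild-type replicate 2. Circles are heads and squares bodies. Red points (mutant) lie at 3.19% or more at 187 nt before the end, where blue and grey points (wild type, block 2 and block 1) lie near 0, and below the blue points at 12 nt before it.

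Use of the main end, the share of reads within 24 nt of the most used position, was compared between wild-type heads and bodies by an exact two-sided permutation test. Only libraries with at least 20 reads of the gene entered. Obp99c had 93.9% ± 7.01 in heads and 83.9% ± 26.7 in bodies (SD, n = 4 each, exact p = 0.714), with body replicate 1 alone at 43.8%. Without that library the difference of heads minus bodies was -3.30 percentage points. Obp99b had 99.91% in heads and 99.95% in bodies (exact p = 0.486). Obp83a (96.3% against 98.1%, exact p = 0.4), Obp83b (84.4% against 95.1%, exact p = 0.667) and Obp99a (59.2% against 78.0%, exact p = 0.4) had 4 libraries of one tissue and 2 of the other, where the smallest exact p is 0.133. For these 3 genes the libraries with enough reads differ in block between the tissues: both bodies of Obp83a and Obp83b are of block 1, and both heads of Obp99a of block 2. Within one block the difference of heads minus bodies was -0.51 points for Obp83a, 2.17 for Obp83b (against -10.7 over both blocks) and -7.46 for Obp99a (against -18.8). Obp28a had only 1 body library with enough reads and was not tested. No difference passed 0.05 in these tests.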

How the data were processed

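Each file deposited by the authors held read counts, not normalized, by chromosome, strand and poly(A) position. Per the submitters' processing notes, reads were aligned with Bowtie2 to BDGP5. Steps not given in the sources used here include the tail filter, any joining of positions, the handling of reads from near-identical copies and which protocol made which library. The annotation was BDGP6. It was used on 2L (to 22258266) and 3L (to 4919025) as it stands, and on 3R (to 27880698) after 4174278 was subtracted from its coordinates. With positions of at least 200 pooled reads, 61.7%, 57.5% and 60.0% then lay within 10 nt of annotated ends, and 0.256%, 0.227% and 0.250% after a shift by 5000 nt.

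Own-strand reads from gene start to 500 nt past the end were summed per gene. Of reads in these regions, 92.5% fell to 1 gene, 6.72% to overlapping genes, left out, and 0.775% to none.

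Tests used edgeR 4.0.16 (R 4.3.3, quasi-likelihood, TMM, filterByExpr, Benjamini-Hochberg over all genes tested, threshold 0.05), tested on simulated data. DESeq2 1.42.0, Python 3.11.15, numpy 2.4.6, pandas 2.3.3, scipy 1.17.1 and matplotlib 3.10.9 were also used. Wild-type tissues were compared over 8 libraries with the block as a term, and the 4 groups of block 2 were fitted together for the other contrasts. Intervals are exact (Clopper-Pearson or conditional binomial), cover counting error only, and do not count PCR copies apart. Same-numbered wild-type libraries deviated together (correlation 0.703 to 0.738; within block 0.632 and 0.103), so the replicate block was fitted as well. Alternatives were other scaling and filters, DESeq2, reads up to 1000 nt past the end, each replicate left out, and each block alone.

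All 6 members were named, with every other Obp gene of at least 5 mean CPM in a group, up to 2 genes per list with the smallest adjusted p, and the 3 nearest genes. Members, lists and tests were chosen with earlier results of these data known.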

Additional observations from a re-analysis of the deposited data

Results flagged for a closer look

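Among 24 groups of 4 wild-type libraries looked at, 4 held a library that stood apart from the other 3 by Dixon's ratio (above 0.829), where chance gives about 1 in 20. Obp99b stood apart in wild-type head replicate 2, at 88.4 CPM, and in wild-type body replicate 3, at 6930.5 CPM. Obp83g stood apart in wild-type head replicate 3, at 132 CPM against 94.7 to 100.2 CPM in the other heads. The share of Obp99c reads at its main end was 43.8% in wild-type body replicate 1 and at least 95.3% in the other wild-type bodies.

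Reads on the strand opposite to a member were also counted, over all libraries. Obp99c had 774, or 0.995% of its reads on both strands, and the gene Gycalpha99B lies across its end on that strand. Obp83a had 14, Obp99a 11 and Obp99b 9, and these were at most 0.234% of the reads of both strands.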

How the results depend on the processing

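Under the alternatives for the 6 members, 90 of 102 values kept direction and side of the threshold for wild-type tissues, 63 of 72 for genotype in heads, 58 of 69 for genotype in bodies, 62 of 66 for mutant tissues and 79 of 90 for the interaction. The causes of the changes below were not tested.

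Genes called between wild-type tissues (2528) were 1512 with no accession block and 912 in block 1. Genotype in heads (51) gave 112 genes with no low-count filter, 231 with the DESeq2 Wald test, 11 to 15 with a replicate left out, 714 with only the 2 groups and 21 with all 12 libraries and the accession block. Genotype in bodies (123) gave 272, 422, 10 to 1779 and 54 under the first 4 of these. The interaction (0) gave 40 with the DESeq2 Wald test and 0 to 600 with a replicate left out.

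With a replicate left out, the log2 fold change between wild-type tissues ranged from -1.15 to 1.83 for Obp99b and -0.86 to 1.11 for Obp99c, and mutant tissues from -0.45 to 1.17 for Obp99c. Genotype in heads ranged from -0.043 to 0.17 for Obp83a and -0.32 to 0.13 for Obp99b. In bodies it ranged from -0.71 to 0.31 for Obp83a, -3.06 to 0.82 for Obp99b and -1.51 to 0.024 for Obp99c. The interaction ranged from -0.25 to 0.76 for Obp83a, -0.92 to 3.00 for Obp99b and -0.13 to 1.39 for Obp99c. The main-end share of Obp99c ranged from -3.30 to 15.2 percentage points.

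Obp99b between wild-type tissues was -1.11 with no accession block and -1.81 in block 2, and Obp99c -0.39 in block 2. Obp99c between mutant tissues was -0.051 with DESeq2 size factors and with the Wald test. With all 12 libraries and the accession block, Obp28a was -0.65 between genotypes in bodies and 1.77 in the interaction, and Obp99c -0.17 in the interaction. A window of 10 nt gave 34.2 points for Obp28a, and Obp83b was 2.17 in block 1. The median over all genes went, with DESeq2 size factors, from 0.13 to -0.05 between wild-type tissues and from -0.03 to -0.34 between mutant tissues, and with scaling on 2L and 3L genes from -0.01 to 0.12 in the interaction.

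The replicate block changed no member's call between wild-type tissues (3254 genes called) and gave 2.17 points for the main end of Obp83b. Mutant libraries share only a number (correlation 0.00977 of 2 pairs). Their replicate block gave 2873 genes between tissues. With all 12 libraries, numbers 1 and 2 join wild-type block 1 to mutant block 2: 1433 genes were called for genotype in heads and 1505 in bodies. In that fit heads gave -0.79 for Obp28a, -2.66 for Obp83a, -1.29 for Obp83b, 0.96 for Obp99a, 2.44 for Obp99b and 0.62 for Obp99c. Bodies gave -2.54 for Obp28a, 2.49 for Obp99b and 1.26 for Obp99c, and the calls -6.74 for Obp83a, -6.47 for Obp83b and 3.89 for Obp99a. The interaction gave 1.75 for Obp28a, -0.054 for Obp99b and -0.64 for Obp99c.

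Depth limits the block 2 body values of Obp28a, Obp83a and Obp83b, where 3 reads are the floor. It also limits Obp99a in heads, with 5 and 2 reads in wild-type replicates 1 and 2 and 14 in mutant replicate 1.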
